A study of Mus musculus with 4 samples.

Results

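Trp53, the gene that encodes p53, and 34 genes that p53 is known to act on or that feed back on p53 were followed in RNA-seq of mouse embryonic stem cells (mESCs). The 35 genes were chosen by name from a list of the p53 pathway, with earlier results of these data known. Each of the 35 had a row in the count table of 37620 genes. All 35 also had enough reads to be tested, among 16264 tested genes. The cells came from 1 mESC line in which endogenous CTCF, a DNA-binding protein that organizes chromatin loops, carried EGFP and an auxin-inducible degron. A vector then supplied either wild-type CTCF (WT_CTCF) or CTCF mutated at T668 so that this residue cannot carry O-GlcNAc (MUT_CTCF). Both lines received auxin to remove the endogenous protein, grew on gelatin in medium with serum and LIF, and were each a picked clone, so that the mutation and any other difference between the clones cannot be told apart. There were 2 libraries per line, named as biological replicates in the methods. The comparison asks whether gene expression differs between the lines under the same conditions.

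The transcription factor p53 is held low in unstressed cells by the ubiquitin ligase MDM2 and its relative MDM4. When DNA is damaged, checkpoint kinases loosen this hold, and p53 binds response elements near its target genes. Its targets stop the cell cycle, start apoptosis, support DNA repair, and include Mdm2 itself, which closes a feedback loop. Mouse ESCs are known for abundant p53 and for a weak arrest at the G1 checkpoint.

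The total count per library ran from 40524694 to 40977464, and the TMM scaling factors lay between 0.994 and 1.01. Normalized counts below are counts scaled to the mean library. The defining mESC markers were present, with 10 of 10 tested and a summed level of 6486 to 6585 CPM (counts scaled to the size of the library) in the 4 libraries. Within that sum Dppa5a and Utf1 fell and Sox2 rose (adjusted p under 0.05). Both MUT_CTCF libraries lay below both WT_CTCF libraries for 5 markers and above them for 3. Of all tested genes 22.3% lay below and 22.3% above. Of 7 fibroblast markers 4 had enough reads to be tested, Lum had 0 counts throughout, and their sum was 24.85 and 24.3 CPM in WT_CTCF and 25.98 and 30.5 in MUT_CTCF. Of 6 primitive endoderm markers 5 were tested, with sums of 15.1 and 15.7 in WT_CTCF and 16.2 and 20.6 in MUT_CTCF, a median log2 fold change of 0.37, 0 called at an adjusted p under 0.05 by edgeR and 2 (Gata6 and Sox17) higher at an unadjusted p under 0.05. The part of these 3 lists in the results below was not tested. In bulk RNA, fewer expressing cells and less RNA per cell cannot be told apart.

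The response elements of p53 are shown first, because p53 is known to bind such sequences near its target genes. A complete element holds 2 copies of a 10-base unit, each made of 3 purines, a C, 2 bases that are A or T, a G and 3 pyrimidines. The mm9 genome was searched for this 20-base element, without a spacer and with the C and G of both units kept, within 3000 bases on each side of every gene start. The element is its own reverse complement, so 1 search covers both strands. With up to 2 mismatches, 12 of the 35 genes had a site, against 6.47% of 16236 tested genes with a window of the same length. With no mismatch 1 member had a site, against 0.129% of these genes. These matches describe the sequence and were not tested for binding in these cells. Shown here, on the strand of the gene and with the 4 central bases of each unit in capitals, are 8 members with up to 2 mismatches, followed by Bbc3 and Trp53, whose best sites had 3. The remaining 4 with 2 mismatches were Ckap2, Eda2r, Fas and Pmaip1. A match with up to 3 mismatches is common, being found near 19 members and 27.1% of the tested genes with a window.
Zmat3: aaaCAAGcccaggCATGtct
Ccng1: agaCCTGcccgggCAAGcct
Cdkn1a: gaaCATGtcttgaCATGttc
Gtse1: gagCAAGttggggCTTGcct
Psrc1: gggCATGttgaggCATGccc
Bax: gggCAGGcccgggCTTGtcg
Plk2: gatCTTGcttagaCTTGttg
Perp: attCTAGcccaggCTTGccc
Bbc3: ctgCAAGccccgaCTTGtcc
Trp53: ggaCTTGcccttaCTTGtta
The site of Zmat3 (chr3:32263253-32263272, minus strand) lay in an intron and was the 1 match without a mismatch. Those of Ccng1 (chr11:40568964-40568983, minus strand), Cdkn1a (chr17:29227873-29227892, plus strand), Gtse1 (chr15:85690375-85690394, plus strand) and Psrc1 (chr3:108187574-108187593, plus strand) had 1 mismatch each. The first 2 of these lay upstream of the annotated gene, that of Gtse1 in an exon and that of Psrc1 in an intron. Bax (chr7:52721944-52721963, minus strand) had its site in an exon, and Plk2 (chr13:111184602-111184621) and Perp (chr10:18562840-18562859) had theirs upstream on the plus strand. The site of Trp53 (chr11:69393786-69393805, plus strand) lay 75 to 56 bases before the gene start, between Trp53 and its neighbour Wrap53, which runs in the opposite direction. Of the 7 members called lower below, 3 had a site with up to 2 mismatches, while the best matches of Phlda3 and Trp53inp1 had 4 and 5.

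**Figure D1:**
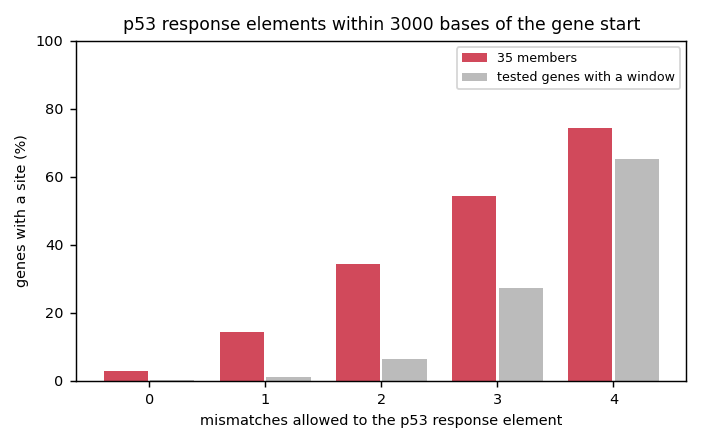
Bars give the percentage of genes (vertical axis) with a p53 response element within 3000 bases of the gene start, for the 35 members (red) and for the 16236 tested genes with such a window (grey), by the number of mismatches allowed (horizontal axis). With up to 2 mismatches 12 of the 35 members had a site, against 6.47% of the tested genes, and with up to 4 mismatches 26 had one, against 65.3%.

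In the promoters of RefSeq (GRCm38.p6, 250 bases before to 50 bases after the start), 27 of the 35 members were found. A single 10-base p53 unit without a mismatch was present in 14 of their 36 promoters, against 8.36% of 32851 promoters. The motif TTTGAA, a cell cycle element searched on both strands, was in 6 of these 36 promoters against 17.9% of all, and CCAAT, also on both strands, in 19 of 36 against 37.4%. None of these motifs was separated from overlapping matches of another.

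In the quasi-likelihood test of edgeR, with p adjusted over all tested genes, 7 of the 35 members fell in MUT_CTCF relative to WT_CTCF mESCs (adjusted p under 0.05), where 1.61% of all tested genes were called in that direction. These were Trp53, Ccng1, Cdkn1a, Bax, Bbc3, Trp53inp1 and Phlda3. None was higher, where 1.56% of all tested genes were called higher, and in either direction the share was 3.17%. At an unadjusted p under 0.05 the numbers were 11 lower, against 7.65% of all tested genes, and 0 higher, against 7.61%. DESeq2 and edgeR's exact test also gave 0 higher members, leaving out WT_CTCF replicate 2 gave 1, and DESeq2 called 3 members lower in place of 7. Both MUT_CTCF libraries lay below both WT_CTCF libraries for 17 members, against 22.3% of all tested genes, and above them for 3, also against 22.3%. The log2 fold change was below 0 for 24 members and above 0 for 11, where 49.2% of all tested genes lay below and 50.8% above. The median log2 fold change was -0.068 over the 35 members and 0.0034 over all tested genes. The changes were small, with folds between 0.823 and 0.924 for the 7 genes. The study's methods ask for a fold change above 2 at an unadjusted p under 0.05, which 0 of the 35 members and 1.3% of all tested genes reached.

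These genes were well covered, which bears on how small a change could be called. Of the 35 members 28 had a mean of at least 1000 normalized counts, and the 7 called genes were all among them. Among the 6461 tested genes with as many counts, 3.45% were lower at an adjusted p under 0.05, 31.7% had both MUT_CTCF libraries below both WT_CTCF libraries, and the median log2 fold change was -0.016. Over the 28 members at that level the median was -0.071, and 17 had both MUT_CTCF libraries lower. The other 7 members, with fewer counts, had overlapping groups throughout. Over the 35 members, the median log2 ratio of a MUT_CTCF to a WT_CTCF library lay between -0.081 and -0.019 for the 4 possible pairs. Between the 2 libraries of a line it was 0.0093 in WT_CTCF and -0.0076 in MUT_CTCF.

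**Figure D2:**
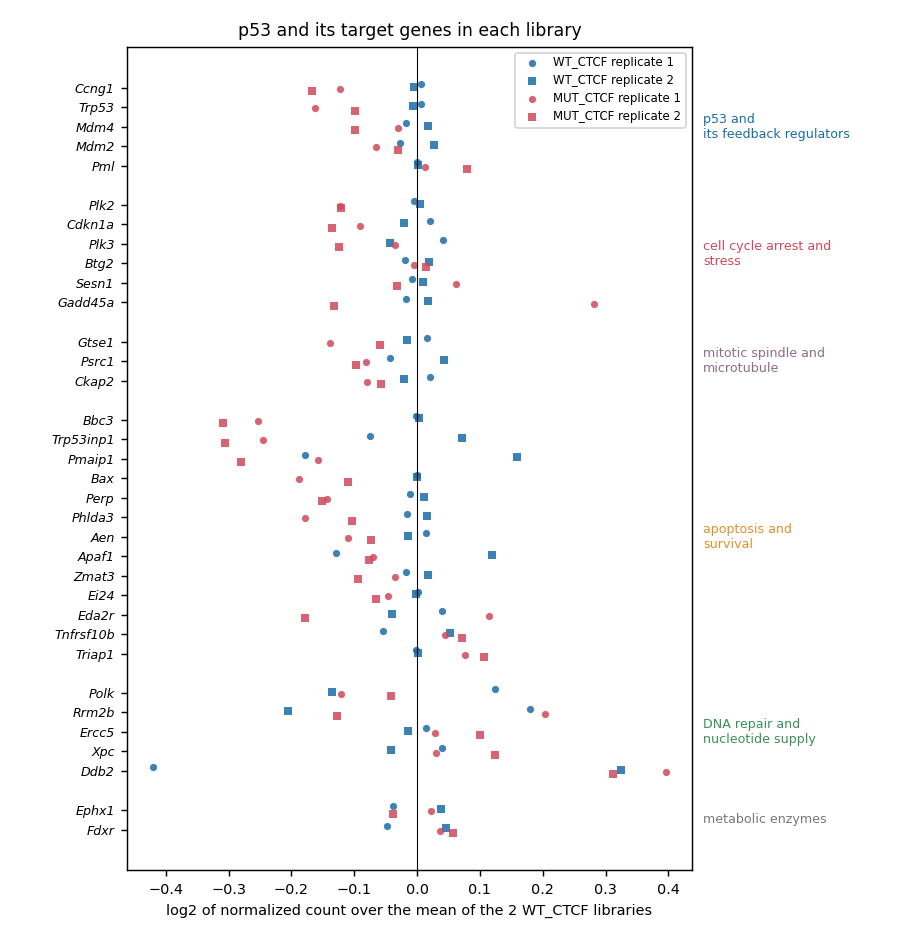
Each point is 1 library, plotted as the log2 of a gene's normalized count over the mean of the 2 WT_CTCF libraries (horizontal axis), with genes in rows grouped by role. Fas, with 3 to 15 counts per library, is left out. For 17 genes both MUT_CTCF points lie left of both WT_CTCF points, and the 2 WT_CTCF libraries of Bax and Bbc3 nearly coincide, while Ddb2 owes its spread to WT_CTCF replicate 1.

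Trp53 (chromosome 11 of mm9, 69393861 to 69405375, plus strand) was the most strongly covered member. It had 33120 and 32825 normalized counts in WT_CTCF and 29444 and 30786 in MUT_CTCF. Both MUT_CTCF libraries were lower, and the gap to the nearer WT_CTCF library was larger than the distance between replicates of either line. Its log2 fold change was -0.13 (standard error, SE, 0.025, adjusted p = 0.000674), a fold of 0.913. The annotation also holds a retrotransposed fragment of the gene, Trp53-ps, and the authors counted uniquely mapped reads. Wrap53, the divergent neighbour of Trp53 that encodes a telomerase and Cajal body protein, had a log2 fold change of -0.13 as well, which did not pass (SE 0.049, adjusted p = 0.15). Wrap53 (69375260 to 69393757, minus strand) shares no annotated exon position with Trp53 in this annotation.

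Among the feedback regulators, Ccng1 fell and the MDM genes did not pass. Ccng1 (chromosome 11, 40562054 to 40568813) encodes cyclin G1, which brings a phosphatase to MDM2. It had 7007 and 6951 normalized counts in WT_CTCF and 6407 and 6218 in MUT_CTCF, so that the groups were well apart. Its log2 fold change was -0.14 (SE 0.038, adjusted p = 0.0217). Mdm2 (chromosome 10, 117125944 to 117147814) had 5509 and 5722 normalized counts in WT_CTCF and 5369 and 5497 in MUT_CTCF. Both MUT_CTCF values were below both WT_CTCF values, by a margin smaller than the spread within either line. The log2 fold change of Mdm2 was -0.048 (SE 0.042, adjusted p = 0.662), with a 95% interval from -0.13 to 0.036. Mdm4, which binds and restrains p53, had -0.064 (adjusted p = 0.628), and Pml, the scaffold of nuclear bodies that take up p53, had 0.047 (adjusted p = 0.607).

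Of 6 genes of cell cycle arrest and stress, 1 fell and 0 rose at an adjusted p under 0.05. The share called lower was 1.61% of all tested genes and 3.45% of those with at least 1000 counts. The log2 fold change was below 0 for 3 of the 6 and above 0 for 3. Cdkn1a (chromosome 17, 29227924 to 29237667), which encodes the cyclin-dependent kinase inhibitor p21, had 11670 and 11339 normalized counts in WT_CTCF and 10796 and 10469 in MUT_CTCF. The groups did not overlap, and the gap between them was wider than the distance between replicates of either line. The log2 fold change of Cdkn1a was -0.11 (SE 0.033, adjusted p = 0.0397), the call nearest to the threshold. The 200 bases before its annotated start (chr17:29227724-29227923, plus strand) are shown with the p53 response element in capitals, since this element has the best match among the arrest genes.
Cdkn1a: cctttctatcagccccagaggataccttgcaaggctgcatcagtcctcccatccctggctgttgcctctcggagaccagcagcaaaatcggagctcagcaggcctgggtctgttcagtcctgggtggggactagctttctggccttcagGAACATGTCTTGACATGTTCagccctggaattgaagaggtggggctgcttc
Plk2, a kinase of the stress response, had 3858 and 3883 normalized counts in WT_CTCF and 3556 and 3560 in MUT_CTCF. Its groups were far apart for their spread, but its log2 fold change of -0.12 did not pass (SE 0.048, adjusted p = 0.178). The other 4 did not pass either. Plk3 had a log2 fold change of -0.079, Btg2, an antiproliferative factor, 0.0049, Sesn1, which restrains mTORC1, 0.016, and Gadd45a, a damage-induced gene, 0.090. Gadd45a had only 151 to 204 counts per library and shares 337 exon bases with E230016M11Rik on the other strand.

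None of the 3 genes of the mitotic spindle and microtubules passed. All 3 had both MUT_CTCF libraries below both WT_CTCF libraries, as did 31.7% of tested genes with at least 1000 counts, a level that these 3 reach. Gtse1, whose product binds microtubules and can move p53 out of the nucleus, came nearest from outside the threshold. It had 14200 and 13896 normalized counts in WT_CTCF and 12755 and 13490 in MUT_CTCF, a log2 fold change of -0.098 (SE 0.032, adjusted p = 0.0745). With the replicate number as a block, it did pass (adjusted p = 0.0315, range over its alternatives 0.0315 to 0.561). Psrc1, which encodes a microtubule-destabilizing protein, had 6593 and 6995 normalized counts in WT_CTCF and 6418 and 6352 in MUT_CTCF. Here the WT_CTCF libraries differed more from each other than the nearer of them did from MUT_CTCF, and the log2 fold change of -0.090 did not pass (SE 0.039, adjusted p = 0.253). Ckap2, a spindle protein, had a log2 fold change of -0.068 (adjusted p = 0.558).

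Apoptosis and survival was the largest role, with 14 of the 35 members, and had 4 lower and 0 higher at an adjusted p under 0.05. Of all tested genes 1.61% were called lower, and 3.45% of those with at least 1000 counts. Trp53 and its feedback regulators had 2 of 5 lower. The median log2 fold change of the 14 apoptosis and survival genes was -0.12. Bbc3 (chromosome 7, 16894965 to 16903554), which encodes PUMA, a BH3-only protein that activates BAX, had 1397 and 1402 normalized counts in WT_CTCF and 1175 and 1130 in MUT_CTCF. Its replicates were close and the groups far apart, and it had -0.28 as log2 fold change (SE 0.076, adjusted p = 0.0249). The 250 bases before its start (chr7:16894715-16894964, plus strand) are shown, since Bbc3 was among the called genes with the lowest fold, with the best match to the p53 response element, 3 mismatches from the consensus, in capitals.
Bbc3: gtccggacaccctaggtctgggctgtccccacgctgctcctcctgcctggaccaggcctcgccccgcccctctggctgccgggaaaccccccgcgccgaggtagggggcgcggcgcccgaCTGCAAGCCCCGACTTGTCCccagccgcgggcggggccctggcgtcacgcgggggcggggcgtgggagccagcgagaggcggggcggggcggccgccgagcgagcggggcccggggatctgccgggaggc
Trp53inp1 (chromosome 4, 11083578 to 11101526), a stress-induced nuclear protein that helps p53 switch on apoptotic genes, had 2407 and 2663 normalized counts in WT_CTCF and 2138 and 2050 in MUT_CTCF. Its groups did not overlap, and its WT_CTCF replicates were almost as far apart as the nearest libraries of the 2 lines. The log2 fold change of Trp53inp1 was -0.28 (SE 0.060, adjusted p = 0.00341), which lies within 1 SE of that of Bbc3.

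Bax (chromosome 7, 52717065 to 52722268), whose product permeabilizes the outer mitochondrial membrane, had 12346 and 12338 normalized counts in WT_CTCF and 10838 and 11432 in MUT_CTCF. All of its spread was in MUT_CTCF, and both of those libraries were clearly lower. The log2 fold change of Bax was -0.15 (SE 0.033, adjusted p = 0.00366). Phlda3 (chromosome 1, 137662696 to 137665713), which inhibits AKT, had 6914 and 7069 normalized counts in WT_CTCF and 6176 and 6509 in MUT_CTCF, without an overlap of the groups. Its log2 fold change was -0.14 (SE 0.039, adjusted p = 0.0300). Aen, an exonuclease that digests DNA in apoptosis, had 7040 and 6905 normalized counts in WT_CTCF and 6459 and 6626 in MUT_CTCF. These groups did not overlap either, and the log2 fold change of -0.092 did not pass (SE 0.038, adjusted p = 0.213).

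The other 9 apoptosis and survival genes did not pass. Perp, a desmosomal membrane protein, had a log2 fold change of -0.15 (adjusted p = 0.418), and Pmaip1, which encodes the BH3-only protein NOXA, -0.22 (adjusted p = 0.397). Perp and 2 further genes, Zmat3 (-0.065), an RNA-binding protein, and Ei24 (-0.056), an endoplasmic reticulum protein, had both MUT_CTCF libraries lower. So did 31.7% of tested genes with at least 1000 counts, a level that these 3 reach. Apaf1, the core of the apoptosome, had -0.074, and Eda2r, a receptor of the TNF family, -0.024. Triap1, which restrains apoptosis at mitochondria, was the 1 gene of this role with both MUT_CTCF libraries higher. Its log2 fold change was 0.091 (adjusted p = 0.683), and 20.1% of tested genes with at least 1000 counts also had both higher. The death receptor genes gave no call. Tnfrsf10b had 0.058, and Fas had 8 and 15 counts in WT_CTCF and 15 and 3 in MUT_CTCF, so that a change in Fas was not detectable at this depth.

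None of the 5 genes of DNA repair and nucleotide supply passed, where 3.17% of all tested genes were called in either direction. The groups overlapped for 4 of the 5, as they did for 9002 of all 16264 tested genes. For 4 the log2 fold change was above 0, of which Rrm2b had -0.13 when WT_CTCF replicate 2 was left out and also when MUT_CTCF replicate 1 was. Ddb2, a damage sensor of nucleotide excision repair, had 154.2 and 258.6 normalized counts in WT_CTCF and 271.6 and 256.2 in MUT_CTCF. Only WT_CTCF replicate 1 stood apart, and the groups overlapped. The log2 fold change of Ddb2 was 0.35 (SE 0.179, adjusted p = 0.335), and it was 0.77 without WT_CTCF replicate 2 (adjusted p = 0.0279) and 0.029 without WT_CTCF replicate 1 (range of the adjusted p over its alternatives 0.0279 to 0.981). Ddb2 also shares 652 exon bases with Acp2 on the other strand. Xpc, another damage sensor, had 0.077, Ercc5, an excision nuclease, 0.065, Rrm2b, a ribonucleotide reductase subunit, 0.047, and Polk, a translesion polymerase, -0.081. Among these, Ercc5 had both MUT_CTCF libraries above both WT_CTCF libraries, as did 22.3% of all tested genes. The metabolic enzymes Ephx1, an epoxide hydrolase (-0.0081, and 0.0043 when scaled by library size only), and Fdxr, the mitochondrial ferredoxin reductase (0.046), did not pass, with 95% intervals from -0.14 to 0.12 and from -0.089 to 0.18.

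**Figure D3:**
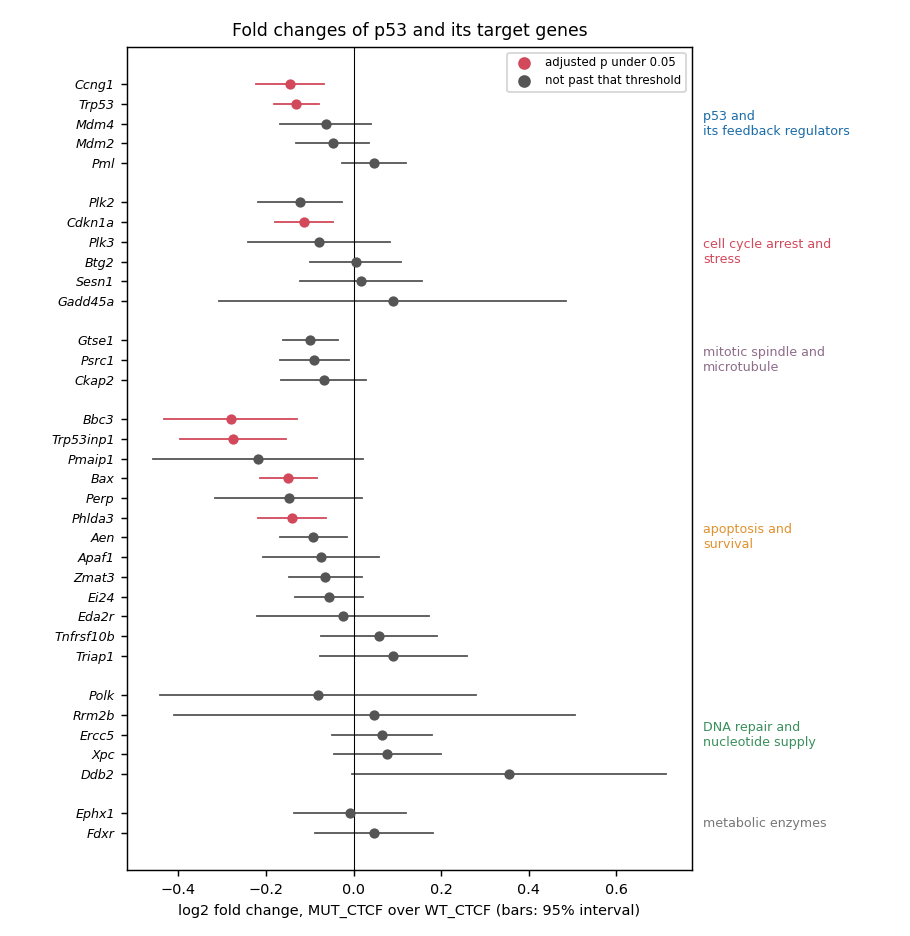
Points give the log2 fold change of MUT_CTCF over WT_CTCF (horizontal axis) from edgeR with 95% intervals as bars, for 34 members in rows grouped by role, without Fas. Red marks the 7 genes with an adjusted p under 0.05, whose values lie between -0.28 and -0.11.

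In level per exon length (RPKM, reads scaled to the length of the exons and to the size of the library), the members of WT_CTCF mESCs ranged from 0.157 to 226. Bax (226), Trp53 (199.8) and Cdkn1a (126.9) had the highest mean level in WT_CTCF, and had means in MUT_CTCF of 203.9, 182.5 and 117.3. Cdkn1a and its neighbour in that order, Gtse1, did not differ beyond their spread in either line. The libraries of WT_CTCF had 128.7 and 125.0 RPKM for Cdkn1a and 125.3 and 122.6 for Gtse1, and those of MUT_CTCF had 119.1 and 115.5 for Cdkn1a and 112.5 and 119.0 for Gtse1. Fas (0.157), Rrm2b (0.502) and Polk (1.18) had the lowest level in WT_CTCF. Mdm2 was at 27.2 RPKM and Mdm4 at 22.7, in the middle of the list. All 7 called genes lay at 9.60 RPKM or more in WT_CTCF.

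**Figure D4:**
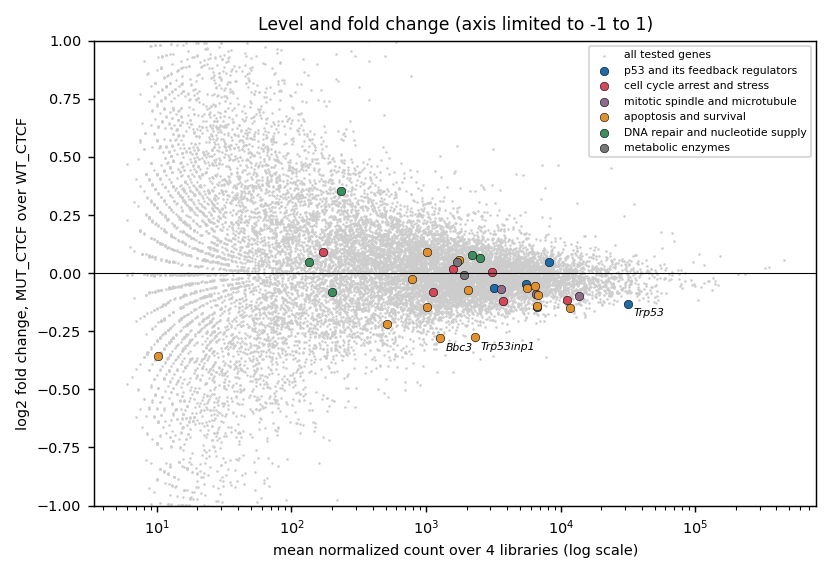
The mean normalized count over the 4 libraries (horizontal log axis) is plotted against the log2 fold change of MUT_CTCF over WT_CTCF (vertical axis, limited to -1 to 1), for all 16264 tested genes in grey and the 35 members coloured by role. Trp53 lies at the high end of the counts at -0.13, and Bbc3 and Trp53inp1 lie lowest among the members with at least 1000 counts, at -0.28.

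The other genes of the pathway were counted from 5 lists, whose calls stand against 1.56% of all tested genes called higher and 1.61% called lower, or 3.45% lower among those with at least 1000 counts. At an unadjusted p under 0.05 the shares of all tested genes were 7.61% higher and 7.65% lower. Of 22 damage sensing and checkpoint genes, 1 rose and 0 fell at an adjusted p under 0.05. At an unadjusted p under 0.05, 2 were higher and 1 lower, and the median log2 fold change of the list was -0.0011. The 1 rise was that of Mdc1, the mediator that binds phosphorylated H2AX at breaks, with 7998 and 8182 normalized counts in WT_CTCF and 9063 and 8686 in MUT_CTCF. The libraries of Mdc1 did not overlap, and its log2 fold change was 0.13 (SE 0.036, adjusted p = 0.0233). This call was lost under DESeq2, without a filter on low counts and with any library left out. Of 31 modifiers and partners of p53, 1 fell and 0 rose, and the median was -0.036. Unadjusted, 3 were higher and 3 lower at p under 0.05. Past the study's criterion was 1 of the 31, against 1.3% of all tested genes. The largest log2 fold change on this list was 1.39, and no rise on it passed at an adjusted p under 0.05. Npm1, a nucleolar protein that binds MDM2 and ARF, had 47605 and 46317 normalized counts in WT_CTCF and 43096 and 40459 in MUT_CTCF. Its log2 fold change was -0.17 (SE 0.025, adjusted p = 3.83e-06), and it has related pseudogenes whose reads counting may not separate.

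Further p53 targets moved both ways, with 3 of 45 tested higher and 3 lower at an adjusted p under 0.05, and a median log2 fold change of -0.041. At an unadjusted p under 0.05, 6 were higher and 7 lower, against 7.61% and 7.65% of all tested genes. Of these 45, 29 had a log2 fold change below 0, against 49.2% of all tested genes. Both MUT_CTCF libraries lay below both WT_CTCF libraries for 18 and above them for 10, against 22.3% of all tested genes in each direction. Of the 3 falls, 1 was left under DESeq2. Ndrg1, a gene that hypoxia also induces, had 277.4 and 272.6 normalized counts in WT_CTCF and 704.9 and 597.9 in MUT_CTCF, a log2 fold change of 1.24 (SE 0.126, adjusted p = 1.01e-10). Ddit4, which inhibits mTORC1 and is likewise induced by hypoxia, rose by 0.53 on the log2 scale (SE 0.054, adjusted p = 9.79e-11). Cyfip2, an actin regulator, rose by 0.44 (SE 0.092, adjusted p = 0.00207). Ndrg1 and Cyfip2 share exon positions with genes on the other strand, and Ak1 shares 124 with Eng on the same strand. Ak1, an adenylate kinase, fell by 0.20 (SE 0.044, adjusted p = 0.00270), and Rps27l, a ribosomal protein gene with a close relative, fell by 0.15 (SE 0.039, adjusted p = 0.0210). The third fall, named after its value was seen, was that of Igfbp3, which binds insulin-like growth factors (-0.28, adjusted p = 0.0343). Trp53cor1 was not analysed here, since its name matched no row. Sco2 had 0 counts in all 4 libraries, and since all 768 bases of its exon overlap Ncaph2 on the other strand, the count sets no limit on its level.

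Genes that p53 is known to lower through p21 and the DREAM repressor complex gave 2 falls and 0 rises among 34. Of these 34, 3 were higher and 5 lower at an unadjusted p under 0.05, and the median log2 fold change was -0.022. Cdc20, an activator of the anaphase-promoting complex, fell by 0.13 on the log2 scale (SE 0.030, adjusted p = 0.00703) and Mcm5, a helicase subunit, by 0.085 (SE 0.022, adjusted p = 0.0178). Cdc20 shares 53 exon bases with Elovl1 on the other strand. Of 22 genes of G1 to S control, 1 fell and 0 rose, and the median was -0.0044. Unadjusted, 2 of these were higher and 2 lower at p under 0.05. E2f4, the E2F member found in DREAM, fell by 0.12 (SE 0.035, adjusted p = 0.0476). The call of E2f4 was lost in DESeq2 and in the exact test of edgeR, and the exact test left 1 of the 2 falls among the DREAM genes. Where one of these lists gave 0 in a direction, these tests also gave 0.

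**Figure D5:**
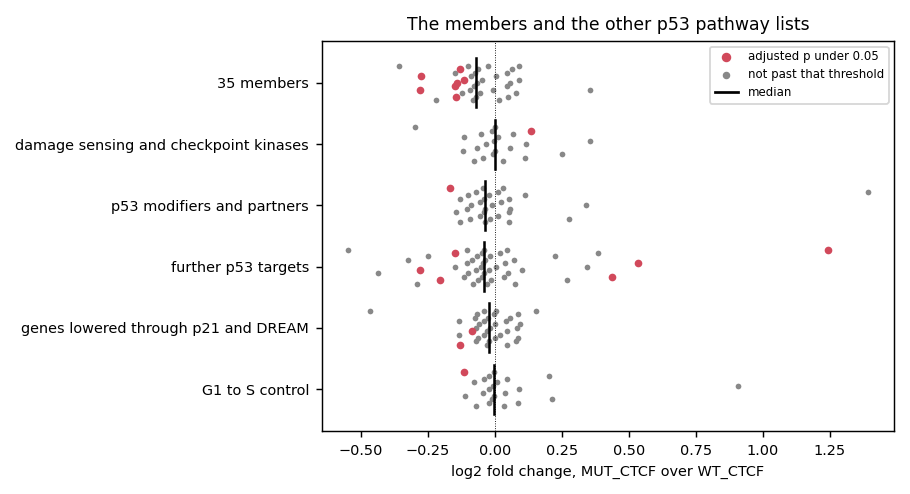
Each point is 1 tested gene at its log2 fold change of MUT_CTCF over WT_CTCF (horizontal axis), for the 35 members and the 5 other p53 pathway lists in rows. Red points have an adjusted p under 0.05 and black bars are medians, at -0.068 for the members and between -0.041 and -0.0011 for the other lists.

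How far the 7 falls among the members depended on the fit varied by gene. In all 11 alternatives for each of the 7 the log2 fold change stayed below 0. Trp53 passed in 8 of 11 alternatives (adjusted p 1.85e-05 to 0.447), Trp53inp1 in 7 (0.000367 to 0.492), Bax in 6 (0.000332 to 0.484), Ccng1 in 5 (0.00757 to 0.477), Bbc3 in 5 (0.0102 to 0.477), Phlda3 in 4 (0.0102 to 0.504) and Cdkn1a in 3 (0.0157 to 0.508). DESeq2 called 3 of the 35 genes lower and 114 genes of the whole table, where the main fit called 7 and 262. Without a filter on low counts, edgeR called 0 of the 35 lower and 3 genes of the whole table. With 1 library left out, which leaves a single library in a line that is then assumed to vary like the other, 2 were lower without WT_CTCF replicate 1, 1 without WT_CTCF replicate 2, and 0 without either MUT_CTCF library, where no gene of the whole table was called. With 2 libraries a line, the smallest two-sided p of an exact permutation test is 0.333, so the calls depend on edgeR's estimate of the spread, which it borrows from all genes.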

How the data were processed

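RNA of 2 WT_CTCF and 2 MUT_CTCF libraries was sequenced, which the methods describe as total mRNA. The authors trimmed reads (Trim Galore 0.4.4 per the labels), used STAR for alignment to mm9, and counted uniquely mapped reads per gene with HTSeq 0.9.1. The deposited counts carry no normalization. The strand used in counting is not given in the sources used here, and 4 members share exon positions with a gene on the other strand. The authors' own edgeR table (fold changes, p-values, false discovery rates) was not used.

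Gene names and places came from GENCODE M1 of the same build (NCBIM37, mm9), which named 37205 of 37620 identifiers. For a symbol with several identifiers, a protein-coding one was preferred, and then the longest locus was taken. Genes were kept by edgeR's filterByExpr (minimum count 10), scaled by TMM, and tested by edgeR 4.0.16 (R 4.3.3; glmQLFit, glmQLFTest) on the line alone, with Benjamini-Hochberg adjustment over 16264 genes. A standard error is the log2 fold change divided by the root of F. The fit was tested on simulated counts. Replicates were compared by chi-square per degree of freedom over genes (3.64 in WT_CTCF, 4.33 in MUT_CTCF), where sampling noise alone would give values near 1. The alternatives tried were the exact test of edgeR, DESeq2 1.42.0, other filters and scalings, leaving out each library, and the replicate number as a block.

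The members and lists were chosen with earlier results of these data known. Values in every library are given for Trp53, Mdm2, Cdkn1a, members with an unadjusted p under 0.05, and members with an absolute log2 fold change of at least 0.3 and at least 100 normalized counts. Of each other list, genes with an adjusted p under 0.05 are named, at most 5 by smallest p.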

Additional observations from a re-analysis of the deposited data

How the results depend on the processing

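The median log2 fold change of the 35 members stayed below 0 in all 11 alternatives, from -0.094 to -0.048 with a library left out, and no member reached the study's criterion, also with a fold change above 1.5. The 7 lower members became 3 under DESeq2 and 0 without a filter on low counts, and 0 to 2 with a library left out, where 0 to 1 were higher. Without the filter 26 genes of the whole table were higher and 3 lower, against 253 and 262. DESeq2 gave 131 and 114, library size only gave 152 lower, and leaving out a library gave 0 to 140 higher and 0 to 102 lower. Members with both MUT_CTCF libraries above both WT_CTCF libraries numbered 6 with library size only. With a library left out, 6 to 8 members lay above and 17 to 24 below, since fewer libraries overlap less. The share of all tested genes without overlap was not counted under these settings, so these numbers have no background to be judged against. The cause of the other shifts was not tested. The 1 higher damage sensing gene became 0 under DESeq2, without a filter and with any library left out. The 1 lower modifier became 0 without a filter and 0 to 1 with a library left out. The 3 lower further targets became 1 under DESeq2, 0 without a filter and 0 to 1 with a library left out, where the 3 higher became 0 to 3. The 2 lower DREAM genes became 1 in the exact test, 1 with library size only, 0 without a filter and 0 to 1 with a library left out. The 1 lower G1 to S gene became 0 in DESeq2, the exact test, library size only, without a filter and with any library left out.

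Of the members that did not pass, 10 changed sign in some alternative. With a library left out, the log2 fold change ran from -0.014 to 0.023 for Btg2, -0.13 to 0.28 for Gadd45a, -0.031 to 0.061 for Sesn1, -0.18 to 0.11 for Eda2r, -1.89 to 0.36 for Fas, -0.19 to 0.055 for Apaf1, -0.13 to 0.25 for Rrm2b, -0.21 to 0.054 for Polk, -0.046 to 0.029 for Ephx1 and -0.00071 to 0.094 for Fdxr. Ephx1 was 0.0043 with library size only.

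With the replicate number as a block, 8 members were lower, the added one being Gtse1, and 1 modifier of p53 was higher. Over the whole table this fit gave 326 genes higher and 372 lower at an adjusted p under 0.05, against 253 and 262 without the block. Across genes, the deviations of WT_CTCF and MUT_CTCF replicate 1 from their line means correlated at -0.020. A single value over all genes cannot show whether libraries of the same number shared a step that acted on some genes. The paired fit is given for completeness. Genes with few counts, such as Fas, are limited by depth.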
